A study of Mus musculus with 6 samples.

Results

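The genes described here build triglyceride and its phospholipid relatives in the liver: the enzymes of fatty acid synthesis, the factors that control them, and the acyltransferases and phosphatases that attach fatty acids to glycerol. The 32 genes were chosen by name and sorted into steps by what their products do. All 32 were found among the 54532 genes with an Ensembl identifier in the count table, and 29 of them had enough reads to be tested among 12795 genes. The 3 that were not tested, Lpcat4, Mboat1 and Mboat2, are given by their counts.

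Hepatocytes make fatty acids from citrate that leaves the mitochondrion, which is cleaved to acetyl-CoA, carboxylated to malonyl-CoA and extended to palmitate. Transcription of these enzymes follows insulin through SREBP-1 and sugar through ChREBP. Fatty acids are then joined to glycerol 3-phosphate in a chain of steps, with lysophosphatidic acid, phosphatidic acid and diacylglycerol as intermediates, and a last acylation gives triglyceride; a side entry starts from monoacylglycerol.

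The samples were 6 libraries of bulk liver RNA from wild-type (WT) mice, which the study's methods give as C57BL/6J males aged 8 weeks at the start; the labels' growth protocol instead mentions an age of 4 weeks for the diet. All mice were fed a high-fat diet for 4 weeks and for 4 further weeks. In the second period 3 libraries' mice received the diet alone (HFD, replicates 1 to 3) and the other 3 also drank allantoin, an oxidation product of uric acid (HFD+Allantoin-H, here Allantoin-H, replicates 4 to 6). The labels name allantoin at 0.06 and 0.3 mg/mL without a dose for a single library, and the higher dose was taken from the paper's name for the group. The question put to these genes was which steps of fat synthesis differed in mRNA between the groups, taken in the order of the pathway. Nothing in the labels says that each library came from a separate mouse, so a p-value measures the spread between libraries. In bulk tissue fewer cells of a type and less RNA per cell cannot be told apart.

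The 5 promoter windows of 4 genes are shown because they stand for the outcomes described below: Gpam and Acly, which were higher in Allantoin-H, Mlxipl, which was lower, and Fasn, whose groups overlapped. Each is the run of 250 bases before a start in RefSeq (GRCm38.p6), written 5′ to 3′ on the strand of the gene. Capitals mark an E-box (CACGTG), a sterol response element (TCACNCCAC) or a CCAAT box (CCAAT), found on either strand, so that ATTGG is a CCAAT box on the other strand. The windows are Gpam at chr19:55127239-55127488 (minus strand), Acly at chr11:100528001-100528250 (minus), Fasn at chr11:120824548-120824797 (minus), and Mlxipl at chr5:135089640-135089889 and chr5:135106641-135106890 (plus). The second Mlxipl window lies in an intron of the same gene, before a start further downstream, and the other 4 lie outside annotated genes. Windows that overlap an annotated exon are not shown, among them a further window of Gpam.
Gpam: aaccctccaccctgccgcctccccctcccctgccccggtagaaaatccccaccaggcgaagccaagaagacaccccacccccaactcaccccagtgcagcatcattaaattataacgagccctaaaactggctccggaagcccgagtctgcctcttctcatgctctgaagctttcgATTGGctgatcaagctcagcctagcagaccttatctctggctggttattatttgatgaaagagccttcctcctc
Acly: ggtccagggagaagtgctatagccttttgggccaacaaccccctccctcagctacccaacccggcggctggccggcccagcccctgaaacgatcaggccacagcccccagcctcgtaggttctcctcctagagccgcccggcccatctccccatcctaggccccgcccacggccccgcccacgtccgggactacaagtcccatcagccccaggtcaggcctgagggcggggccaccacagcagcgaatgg
Fasn: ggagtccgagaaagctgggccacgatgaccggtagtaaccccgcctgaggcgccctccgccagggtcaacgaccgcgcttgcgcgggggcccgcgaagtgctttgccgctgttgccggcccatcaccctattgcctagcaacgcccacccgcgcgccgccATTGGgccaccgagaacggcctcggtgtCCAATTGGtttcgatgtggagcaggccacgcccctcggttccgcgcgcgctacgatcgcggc
Mlxipl, upstream start: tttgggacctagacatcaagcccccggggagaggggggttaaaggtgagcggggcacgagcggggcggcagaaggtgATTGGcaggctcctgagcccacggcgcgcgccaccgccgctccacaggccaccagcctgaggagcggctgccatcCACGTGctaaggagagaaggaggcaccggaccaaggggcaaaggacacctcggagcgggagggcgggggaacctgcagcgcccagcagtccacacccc
Mlxipl, downstream start: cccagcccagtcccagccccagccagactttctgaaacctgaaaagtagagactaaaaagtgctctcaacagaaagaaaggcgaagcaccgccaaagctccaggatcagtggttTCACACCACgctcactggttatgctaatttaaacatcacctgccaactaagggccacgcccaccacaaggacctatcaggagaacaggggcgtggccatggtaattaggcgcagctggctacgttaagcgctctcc

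Of the 32 genes 28 had 38 promoter windows in the set of RefSeq windows used here. That set held none for Gpat4, Dgat1, Dgat2 and Agpat5, which does not mean that RefSeq lacks their starts. The E-box stood in 3 member windows, those of Mlxipl, Mlx and Lpin2, and in 6.02% of all 32851 windows of this length. The sterol response element was found in 1 member window, the downstream start of Mlxipl, 136 to 128 bases before the start, and in 1.05% of all windows. CCAAT boxes stood in 16 member windows and in 33.8% of all windows, with 3 in Fasn, of which 2 share bases in the 8 letters 62 to 55 bases before the start, and 1 in Gpam 74 to 70 bases before it. The GC box GGGCGG, not capitalised above, stood in 23 member windows and in 32.7% of all, and Acly carried 4. No member window held a direct repeat of AGGTCA with any 1 base between (PPAR DR1) or any 4 bases (LXR DR4), which stood in 0.0335% and 0.0152% of all windows. A match is a description of letters and not of a bound site.

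Depth was 11326372 to 14601457 counts per library. Values are counts scaled to a common library size (CPM) after TMM scaling, a factor per library that offsets a few abundant genes. The factors were 0.756 to 0.951 in HFD and 1.12 to 1.19 in Allantoin-H, and genes of the mitochondrial chromosome took 17.9% to 36.4% and 6.9% to 11.3% of the counts. The group, the scaling and this share move together and their parts in a single result cannot be told apart. The liver label held for hepatocyte markers, whose 8 genes summed to 103000 to 104000 CPM in HFD and 78000 to 107000 CPM in Allantoin-H, with 4 called lower. Alb, at 54400 to 82140 CPM, made up most of each sum and overlapped between groups. Of the 8 markers 6 were lower in Allantoin-H without overlap, and their median log2 fold change, Allantoin-H over HFD, was -0.69. One HFD library, replicate 2, also carried fat-cell RNA: the 12 adipocyte markers summed to 660 CPM there and to 52.3 to 139 CPM in the other 5, and Adipoq and Plin1 stood at 51.4 and 49.2 CPM in it and at 0 in the other HFD libraries. Not every marker on the list followed. Adrb3, the 1 called lower of 5 tested, had 33.95, 28.05 and 12.12 CPM in HFD and 2.20, 2.13 and 2.36 CPM in Allantoin-H. Cidea had 4.54 CPM in HFD replicate 2 and 4.03 CPM in Allantoin-H replicate 4. Adipocytes also express lipogenic genes, so each call among the genes that changes without this library is named below.

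Across the pathway, 8 of the 29 tested genes (27.6%) were higher and 2 (6.9%) lower in Allantoin-H at an adjusted p under 0.05 (edgeR quasi-likelihood test, Benjamini-Hochberg over all genes tested), beside 11.3% and 13.0% of all 12795 genes (24.3% in either direction). The 8 were Acly, Acacb, Srebf1, Gpam, Gpat4, Dgat2, Lpgat1 and Lclat1, and the 2 were Mlxipl and Agpat1. In 11 genes (37.9%) all Allantoin-H libraries lay above all HFD libraries and in 5 (17.2%) below them, beside 22.4% and 21.9% of all genes (44.3% either way). The median log2 fold change, Allantoin-H over HFD, was 0.09 with a range from -1.95 to 2.56, against -0.03 over all genes, and 17 of 29 values (58.6%) were above 0 against 48.2%. Scaling by library size only moved the median of all genes to 0.38 and that of these 29 to 0.49, so that the gap between them was 0.11 in place of 0.12, and gave 12 genes higher and 1 lower. Without HFD replicate 2 there were 5 higher, 3 lower and a median of 0.41, and without Allantoin-H replicate 5 there were 2 higher, 1 lower and a median of 0.36.

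**Figure D1:**
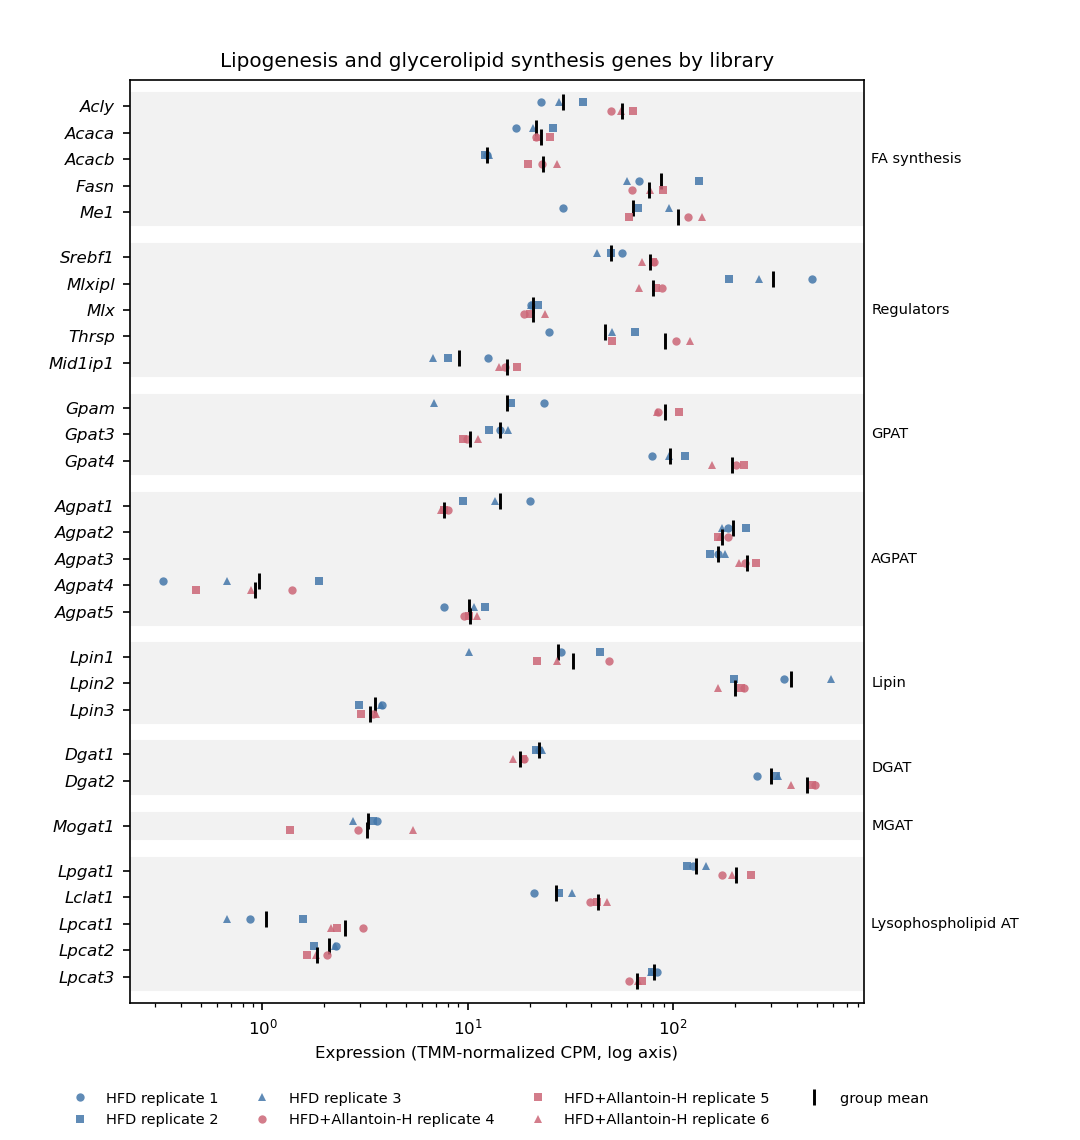
TMM-normalized CPM on a log axis for the 29 tested genes, grouped by step (FA, fatty acid; AT, acyltransferase), with HFD libraries in blue, HFD+Allantoin-H libraries in red, a marker shape for each replicate and a black bar at each group mean. The clearest gaps are those of Gpam, with 6.86 to 23.6 CPM in HFD and 83.3 to 106.5 CPM in Allantoin-H, and of Mlxipl, with 187 to 475 CPM and 67.9 to 88.5 CPM.

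Of the 5 genes for enzymes of fatty acid synthesis, 2 had higher mRNA in Allantoin-H, those of the entry enzyme and the mitochondrial carboxylase. The mRNA of the cytosolic carboxylase and of the synthase overlapped between groups. Acly (ENSMUSG00000020917, chr11:100476353-100528000), ATP citrate lyase, which makes cytosolic acetyl-CoA, had 22.7, 36.5 and 27.8 CPM in HFD replicates 1 to 3 and 49.9, 63.7 and 55.8 CPM in Allantoin-H replicates 4 to 6. Every Allantoin-H library was above every HFD library. The gene rose 1.95-fold (log2 0.96, SE 0.21, edgeR adjusted p = 0.0120). Acacb (ENSMUSG00000042010, chr5:114146535-114250761) encodes acetyl-CoA carboxylase 2, whose malonyl-CoA at the mitochondrial surface restrains fatty acid entry. It had 12.3, 12.2 and 12.7 CPM in HFD and 23.0, 19.8 and 27.1 CPM in Allantoin-H, a gap with no overlap over a very even HFD group. It rose 1.88-fold (log2 0.91, SE 0.18, edgeR adjusted p = 0.00937) and remained called in each of 16 refits with another scaling, test, filter or set of libraries. Acly lost its call without Allantoin-H replicate 5 (log2 0.87, edgeR adjusted p = 0.0614) and kept it in the other 15.

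The cytosolic carboxylase and the synthase did not follow. Fasn (ENSMUSG00000025153, chr11:120805846-120824547), fatty acid synthase, had 68.0, 134.5 and 59.6 CPM in HFD and 63.1, 89.8 and 77.4 CPM in Allantoin-H. Its highest value was in HFD replicate 2, the library with adipocyte RNA, and of the other HFD values 1 lay within and 1 below the Allantoin-H range. The log2 fold change was -0.19 (SE 0.30, edgeR adjusted p = 0.688), with a 95% interval of 0.548 to 1.41 for the fold. It was 0.27 without HFD replicate 2 and 0.22 with scaling by library size only, in neither case past the threshold; the part of the adipocyte RNA in the Fasn value was not tested. Acaca, acetyl-CoA carboxylase 1, had 17.3 to 26.1 CPM in HFD and 21.6 to 25.1 CPM in Allantoin-H (log2 0.09, SE 0.19, edgeR adjusted p = 0.76, 95% interval of the fold 0.789 to 1.44). A processed pseudogene, Gm5182, matches it at 99.2% over 6118 bases, so that its reads could be split. Me1, malic enzyme, which supplies NADPH, had 29.0, 67.4 and 95.8 CPM in HFD and 118, 61.2 and 138 CPM in Allantoin-H. Replicate 5 was the only Allantoin-H library within the HFD range, the log2 value was 0.72 (SE 0.42, edgeR adjusted p = 0.237), and near-identical pseudogenes exist here too. Me1 was called in 1 of the 16 refits, the one without a filter.

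The regulators split, with Srebf1 higher and Mlxipl lower. Mlxipl (ENSMUSG00000005373, chr5:135089890-135138382), which encodes ChREBP, the factor that answers to sugar phosphates and drives pyruvate kinase and lipogenic genes, had 475, 187 and 261 CPM in HFD and 88.5, 82.2 and 67.9 CPM in Allantoin-H. All Allantoin-H libraries were below all HFD libraries, and the HFD group spread widely while the Allantoin-H group was even. Expression fell to a fold of 0.259 (log2 -1.95, SE 0.32, edgeR adjusted p = 0.00513), which was within the 3.56% of all tested genes with the largest absolute log2 fold change. Leaving out single libraries gave log2 values from -2.21 to -1.50, and the gene was called in each of the 16 refits. An antisense gene, Gm43500, shares 235 exon bases with it, and whether reads were counted by strand is not given in the sources used here. On the scale per length, CPM per kb of transcript, Mlxipl took place 3 of the 32 genes in HFD (84.9 ± 41.4, SD, n = 3) and place 10 in Allantoin-H (22.0 ± 2.91, SD, n = 3).

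Srebf1 (ENSMUSG00000020538, chr11:60199089-60222581) encodes SREBP-1, the insulin-driven factor for lipogenic genes. It had 56.7, 49.9 and 42.4 CPM in HFD and 80.8, 79.7 and 70.9 CPM in Allantoin-H, without overlap. The gene rose 1.56-fold (log2 0.64, SE 0.17, edgeR adjusted p = 0.0253). The call was lost without HFD replicate 2 and without each Allantoin-H library in turn, with edgeR adjusted p up to 0.10; over all 6 such fits the log2 value lay between 0.54 and 0.74. The counts do not separate the transcripts of Srebf1, whose starts differ, and 109 of its exon bases overlap Rai1. Mlx, the partner with which ChREBP binds DNA, had 18.8 to 23.8 CPM in all 6 libraries and a log2 value of 0.00 (SE 0.17, 95% interval of the fold 0.773 to 1.3). Thrsp, Spot 14, a lipogenic protein of the fed state, had 24.9, 65.2 and 50.3 CPM in HFD and 104, 50.3 and 121 CPM in Allantoin-H. As in Me1, replicate 5 was the low Allantoin-H library, and the log2 value of 0.97 (SE 0.39) missed the threshold (edgeR adjusted p = 0.10). Thrsp was called in 3 of the 16 refits. Mid1ip1, a relative of Thrsp that binds acetyl-CoA carboxylase and promotes its polymerization, had 12.6, 8.0 and 6.77 CPM and 15.2, 17.3 and 14.2 CPM. These groups did not overlap, and with a log2 value of 0.78 (SE 0.25, edgeR adjusted p = 0.0525) the gene lay just outside the threshold and was called in 7 of the 16 refits.

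**Figure D2:**
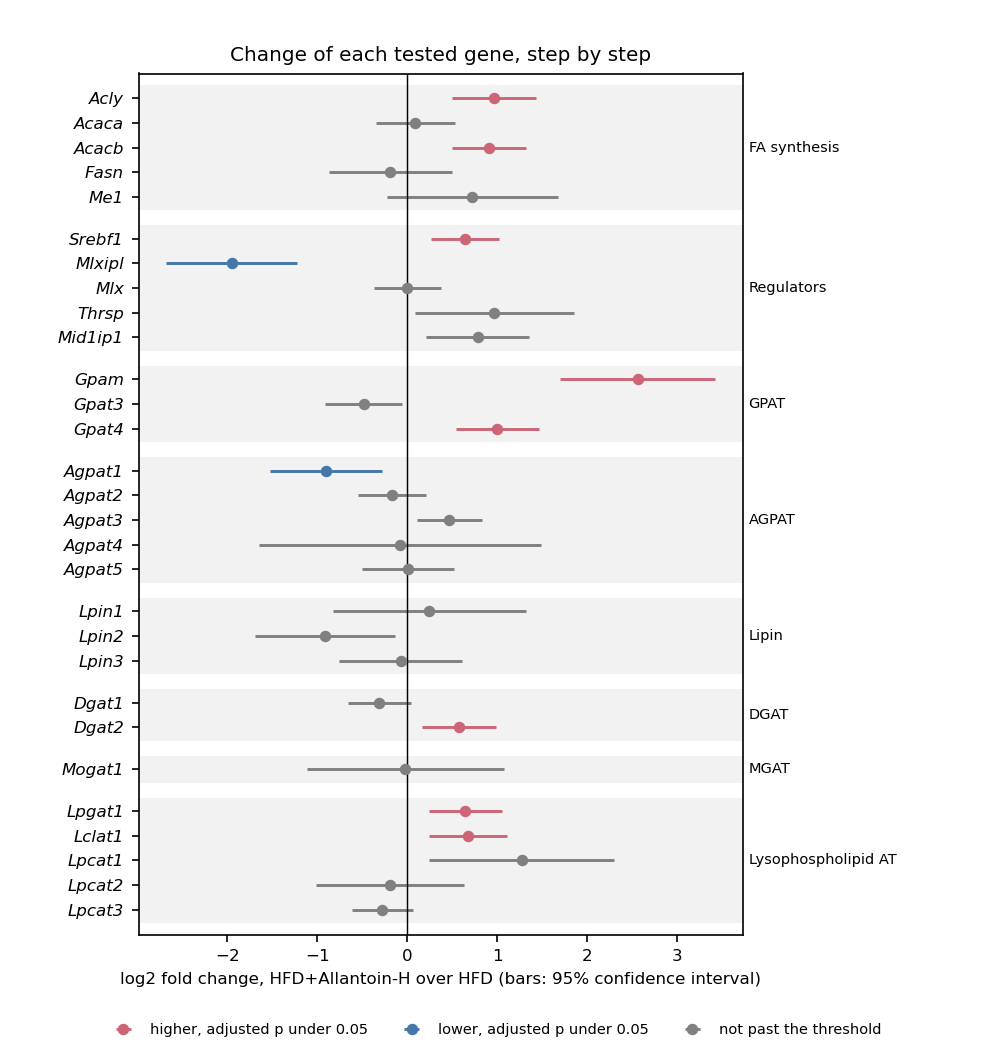
The log2 fold change of each tested gene, HFD+Allantoin-H over HFD, with its 95% confidence interval from edgeR, grouped by step; red points passed the threshold as higher, blue as lower and grey did not pass. Gpam at 2.56 and Mlxipl at -1.95 lie at the ends, and grey genes with values near 0, such as Fasn at -0.19, change sign in some refits.

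The first acylation of glycerol 3-phosphate held the largest rise among the tested genes of the pathway. Gpam (ENSMUSG00000024978, chr19:55067268-55127238) encodes GPAT1, the acyltransferase of the outer mitochondrial membrane, which competes with carnitine palmitoyltransferase for fatty acids. It had 23.6, 16.3 and 6.86 CPM in HFD and 84.1, 106.5 and 83.3 CPM in Allantoin-H. The lowest Allantoin-H library was more than 3 times the highest HFD library. The rise was 5.89-fold (95% interval 3.24 to 10.7, log2 2.56, SE 0.38, edgeR adjusted p = 0.00403), rank 173 of 12795 genes by absolute log2 fold change. It was called in each of the 16 refits, with log2 values from 2.20 to 2.98 when single libraries were left out, the lowest without HFD replicate 3. Per length it moved from the 22nd to the 12th place among the 32 genes, from 2.52 ± 1.36 to 14.8 ± 2.14 CPM per kb (SD, n = 3 each).

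Gpat4 (ENSMUSG00000031545, chr8:23171265-23208346), an acyltransferase of the endoplasmic reticulum, had 79.4, 115 and 95.8 CPM in HFD and 203, 223 and 155 CPM in Allantoin-H. The groups did not overlap, and the gene rose 2.0-fold (log2 1.0, SE 0.21, edgeR adjusted p = 0.0104). Without Allantoin-H replicate 5 it missed the threshold (log2 0.89, edgeR adjusted p = 0.0566), and in the other 15 refits it passed. Gpat3, the isoenzyme prominent in adipose tissue, went the other way without passing: 14.4, 12.7 and 15.7 CPM in HFD and 9.90, 9.47 and 11.3 CPM in Allantoin-H, with no overlap (log2 -0.49, SE 0.19, edgeR adjusted p = 0.0885). It passed in 1 of the 16 refits, the one with the length and GC trend removed. An antisense transcript, 4930458D05Rik, shares 1052 exon bases with Gpat3.

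Summed per length, the 3 acyltransferases reached 22.9, 27.6 and 23.6 CPM per kb in HFD and 53.6, 60.7 and 45.2 CPM per kb in Allantoin-H, a ratio of means of 2.15. This sum over named genes is a description and was not tested. Gpam made up 16.7%, 9.57% and 4.7% of the step in HFD and 25.4%, 28.4% and 29.9% in Allantoin-H, so its share was higher in all 3 Allantoin-H libraries. Gpat3 made up 15.1% to 21.8% and 5.1% to 8.15%, and Gpat4 remained the main isoenzyme in all 6 libraries with 62.0% to 75.4%.

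**Figure D3:**
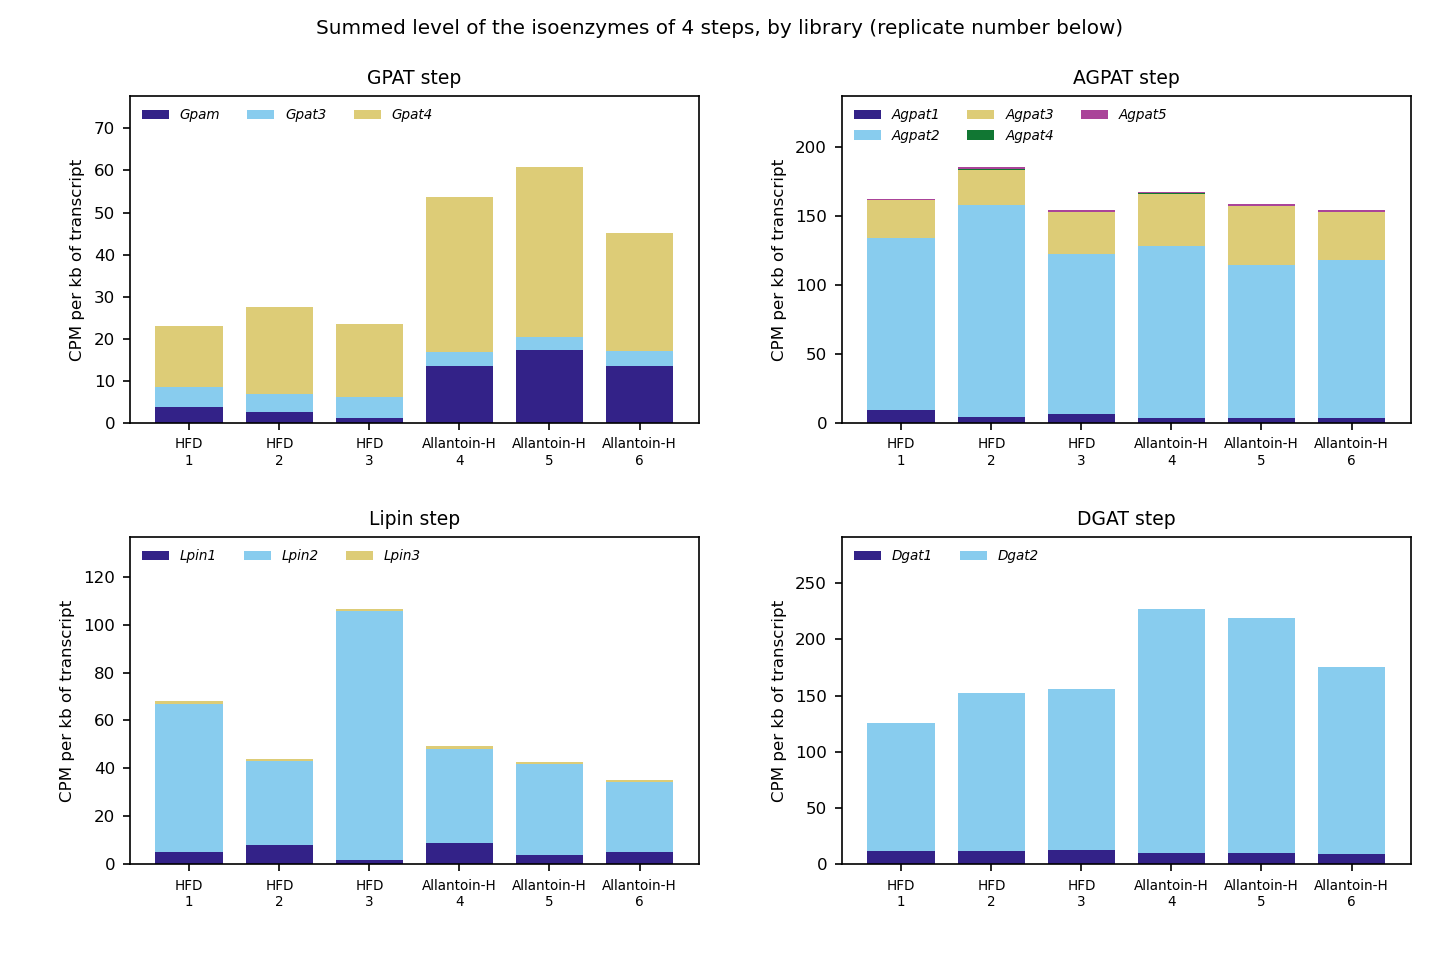
Stacked bars of CPM per kb of transcript for the isoenzymes of 4 steps, 1 bar per library with HFD replicates 1 to 3 and HFD+Allantoin-H (Allantoin-H) replicates 4 to 6. The GPAT bars are 22.9 to 27.6 in HFD and 45.2 to 60.7 in Allantoin-H, the AGPAT bars overlap, the tallest lipin bar is HFD replicate 3 at 106.7, and Dgat2 makes up at least 90.6% of each DGAT bar.

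The second acylation, from lysophosphatidic to phosphatidic acid, changed little in sum. Agpat2 (ENSMUSG00000026922, chr2:26593057-26604417), the isoenzyme whose loss causes lipodystrophy, had 186, 228 and 173 CPM in HFD and 185, 165 and 170.1 CPM in Allantoin-H. The groups overlapped, and the highest value was again in HFD replicate 2. The log2 value was -0.17 (SE 0.17, edgeR adjusted p = 0.481, 95% interval of the fold 0.684 to 1.15), was -0.05 without HFD replicate 2, and turned to 0.24 with scaling by library size only and 0.16 with the length and GC trend removed. Agpat1 (ENSMUSG00000034254, chr17:34604262-34613449), a widely expressed isoenzyme, had 20.1, 9.48 and 13.6 CPM in HFD and 7.99, 7.69 and 7.42 CPM in Allantoin-H. All Allantoin-H libraries were lower, close to HFD replicate 2, and the gene fell to a fold of 0.536 (log2 -0.90, SE 0.28, edgeR adjusted p = 0.0435). This call is among the weakest of the 10: it held in 9 of 16 refits, the log2 value was -0.59 without HFD replicate 1, and the call was also lost without each Allantoin-H library (edgeR adjusted p up to 0.133), with limma-voom, with scaling by library size only and with the length and GC trend removed. Agpat1 shares 101 exon bases with Egfl8.

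Agpat3, which favours polyunsaturated acyl groups, had 165, 152 and 180 CPM in HFD and 225, 254.5 and 208.5 CPM in Allantoin-H, without overlap (log2 0.47, SE 0.16, edgeR adjusted p = 0.0618). It was called in 4 of the 16 refits. Agpat5 lay at 7.64 to 12.2 CPM in all libraries (log2 0.01, SE 0.23), and 2043 of its exon bases overlap an antisense gene, Gm35934. Agpat4 had 3 to 19 counts per library (log2 -0.08, SE 0.69) and passed the filter through 3 of the 6 libraries. Per length the 5 genes summed to 167 ± 16 CPM per kb in HFD and 160 ± 6.80 in Allantoin-H (SD, n = 3 each), with overlap. Agpat2 held 75.5% to 82.8% of this sum in HFD and 70.1% to 74.4% in Allantoin-H, and Agpat3 13.8% to 19.5% and 22.5% to 26.9%.

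No lipin passed the threshold in the main edgeR fit, where Lpin2 alone had an unadjusted p under 0.05 (0.0259). DESeq2 and the edgeR fit without a filter called Lpin2. The lipins remove the phosphate of phosphatidic acid to give diacylglycerol, and Lpin2 was the main one per length, with 80.1% to 97.3% of the step. It had 349, 198 and 586 CPM in HFD and 222, 213 and 165 CPM in Allantoin-H. HFD replicates 1 and 3 were above all Allantoin-H libraries and replicate 2 lay among them. The log2 value was -0.91 (SE 0.34, edgeR adjusted p = 0.0817), and -1.22 without HFD replicate 2, which passed the threshold. Lpin1, which also acts as a nuclear coactivator for genes of fatty acid oxidation, had 28.6, 43.9 and 10.1 CPM in HFD and 48.8, 21.8 and 27.1 CPM in Allantoin-H, with overlap (log2 0.24, SE 0.47, 95% interval of the fold 0.563 to 2.49). HFD replicate 3 thus had the lowest Lpin1 and the highest Lpin2 of all libraries. Lpin3 lay at 2.96 to 3.82 CPM throughout (log2 -0.07, SE 0.30, and 0.34 with scaling by library size only).

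The last acylation, from diacylglycerol to triglyceride, differed between its enzymes. Dgat2 (ENSMUSG00000030747, chr7:99153658-99182719), which prefers newly made fatty acids and sits at the endoplasmic reticulum and lipid droplets, had 257, 318 and 326 CPM in HFD and 492, 473 and 376.5 CPM in Allantoin-H. The groups did not overlap, and the gene rose 1.49-fold (log2 0.57, SE 0.18, edgeR adjusted p = 0.0475). The call lay at the threshold: it held in 10 of 16 refits and in 1 of the 6 without a library, the one without HFD replicate 3, with log2 values of 0.47 to 0.69 and edgeR adjusted p up to 0.163 in the others. Dgat1, unrelated in sequence and turned more to fatty acids from outside the cell, had 22.3, 21.4 and 22.9 CPM in HFD and 18.7, 18.6 and 16.5 CPM in Allantoin-H. All Allantoin-H values were lower, with a log2 value of -0.31 (SE 0.16, edgeR adjusted p = 0.177) that turned to 0.11 with scaling by library size only. Per length Dgat2 was the first of the 32 genes in both groups, and Agpat2 the second. The means of these 2 differed by less than their SDs in HFD (133 ± 16.8 and 131 ± 19.3 CPM per kb) and by more in Allantoin-H (198 ± 27.4 and 117 ± 7.01, n = 3 each). The DGAT step summed to 125 to 156 CPM per kb in HFD and 175 to 227 in Allantoin-H, with Dgat2 at 90.6% to 92.5% and 95% to 95.6% of it.

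Mogat1, the monoacylglycerol acyltransferase that gives diacylglycerol without phosphatidic acid, was low in every library, at 3.60, 3.46 and 2.76 CPM in HFD and 2.93, 1.36 and 5.40 CPM in Allantoin-H. Allantoin-H replicates 5 and 6 were the lowest and the highest of the 6 (log2 -0.02, SE 0.48, 95% interval of the fold 0.464 to 2.10). The Allantoin-H counts were 40, 23 and 80, and with this spread between libraries folds within that interval were not excluded.

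The lysophospholipid acyltransferases, which remodel the acyl chains of membrane lipids, divided by gene. Lpgat1 (ENSMUSG00000026623, chr1:191717834-191784255), named for lysophosphatidylglycerol, had 126, 117 and 145 CPM in HFD and 172.5, 239 and 194.5 CPM in Allantoin-H. Lclat1 (ENSMUSG00000054469, chr17:73107985-73243368), named for lysocardiolipin, had 21, 27.8 and 32.2 CPM and 39.3, 42.7 and 47.5 CPM. Neither overlapped between groups. Lpgat1 rose 1.56-fold (log2 0.64, SE 0.18, edgeR adjusted p = 0.0320) and Lclat1 1.60-fold (log2 0.68, SE 0.19, edgeR adjusted p = 0.0333). Both calls held in 10 of 16 refits and were lost with the length and GC trend removed (log2 0.39 and 0.50) and without any library other than HFD replicate 3, with edgeR adjusted p up to 0.143 and 0.116.

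Lpcat3, the main enzyme that puts polyunsaturated chains into liver phosphatidylcholine, had 83.6, 79.2 and 78.3 CPM in HFD and 60.9, 70.7 and 67.7 CPM in Allantoin-H. Lpcat3 shares 334 exon bases with Emg1. All Allantoin-H values were below the HFD values, with a log2 value of -0.27 (SE 0.15, edgeR adjusted p = 0.204) that was 0.14 with scaling by library size only. Its share of the step per length was 54.3% to 61.0% in HFD and 41.3% to 43.7% in Allantoin-H, while that of Lpgat1 was 27.7% to 31.7% and 39.1% to 44.0%. Lpcat1, best known from lung surfactant, had 8, 16 and 8 counts in HFD and 42, 39 and 32 in Allantoin-H (log2 1.27, SE 0.46, edgeR adjusted p = 0.0709). It passed the filter through 1 HFD and 3 Allantoin-H libraries. Without HFD replicate 2 it passed the threshold (log2 1.70, edgeR adjusted p = 0.0415), as it did with scaling by library size only, and its largest adjusted p over the refits was 0.232. Lpcat2 lay at 1.66 to 2.29 CPM (log2 -0.20, SE 0.36, and 0.22 with scaling by library size only). Lpcat4 had 7, 4 and 9 counts in HFD and 4, 11 and 6 in Allantoin-H, Mboat1 had 0, 1 and 11 and 0, 1 and 8, and Mboat2 stayed at or under 3 counts in each library.

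**Figure D4:**
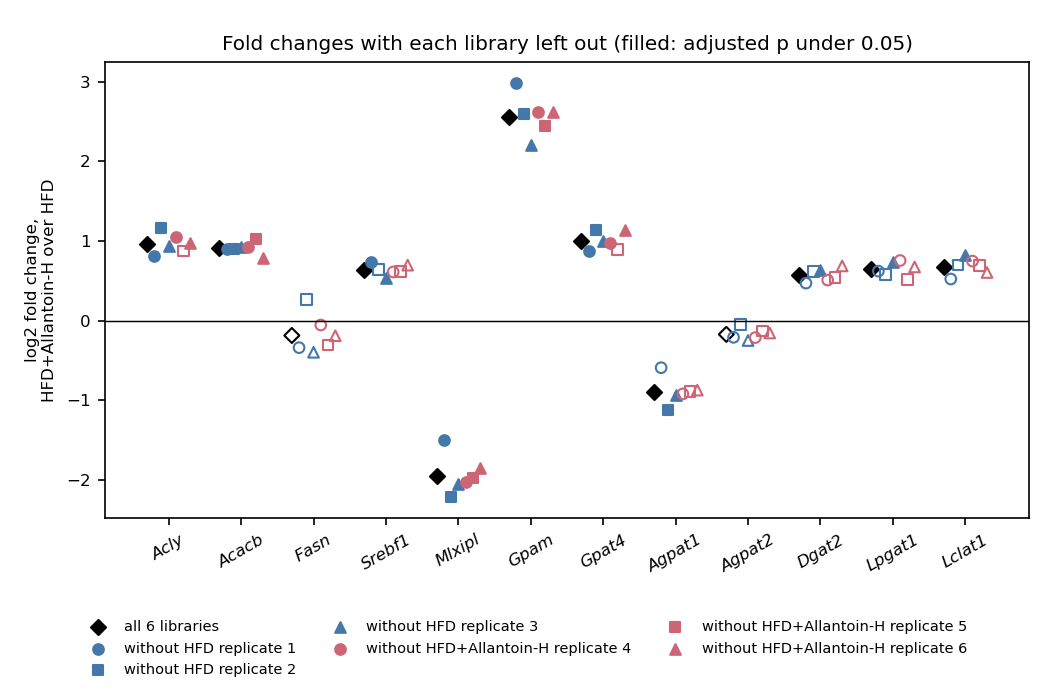
The log2 fold change of the 10 genes past the threshold, and of Fasn and Agpat2, with all 6 libraries (black) and with each library left out (blue, an HFD library; red, an HFD+Allantoin-H library); filled symbols passed an adjusted p under 0.05 in edgeR. Gpam, Mlxipl and Acacb are filled throughout, and Fasn crosses 0 when HFD replicate 2 is left out.

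The 29 genes varied more in HFD than in Allantoin-H: the coefficient of variation over libraries was larger in HFD for 21 of them and in Allantoin-H for 8, with medians of 20.8% and 12.3%. It was not computed over all tested genes, so the difference in spread cannot be called particular to these genes. No single library was extreme throughout. HFD replicate 1 was the lowest of the 6 in 9 genes and the highest in 5, and Allantoin-H replicate 5 was the highest in 6 and the lowest in 4. Markers of stellate cells, macrophages and cholangiocytes differed in sum between the groups without overlap. The 10 stellate cell markers summed to 209 to 344 CPM in HFD and 468 to 545 CPM in Allantoin-H, with 7 called higher. Of these stellate markers 8 were higher without overlap, and Ecm1 and Des overlapped, with log2 values of -0.005 and -0.02. Over all tested genes 11.3% were called higher. The 10 Kupffer cell and macrophage markers summed to 168 to 391 CPM and 421 to 459 CPM, with 3 called higher. Of these 10, 5 were higher without overlap, and Timd4 and C1qa had log2 values of -0.10 and -0.06. Markers of cholangiocytes summed to 9.58 to 49.6 CPM and 3.98 to 5.56 CPM, and of their 2 tested genes 1 was called lower. That gene, Sox9, made up most of each HFD sum, with 13.0, 8.30 and 43.6 CPM in HFD and 2.27, 2.78 and 2.16 CPM in Allantoin-H. Krt19, Krt7, Epcam and Cftr overlapped between groups. Muc1, with too few reads to be tested, was lower without overlap, at 0.98, 0.395 and 0.167 CPM in HFD and 0, 0 and 0.135 CPM in Allantoin-H. The sum thus describes Sox9 more than the whole list. The 8 sinusoidal endothelial markers overlapped, at 90.2 to 179 CPM and 165 to 264 CPM, with 1 called higher. Those of lymphocytes and neutrophils (17.2 to 28.1 CPM over all 6), red blood cells (334 to 1340 CPM and 880 to 1060 CPM) and pancreatic acinar cells (14.7 to 28.5 CPM over all 6) also overlapped between groups, and muscle markers reached at most 5.04 CPM, in HFD replicate 2. The part of these cells in the values of the lipogenic genes was not tested.

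Neighbouring reactions of the pathway were read from 9 lists of 109 further genes in the table, of which 103 were tested; 18 (17.5%) were higher and 5 (4.85%) lower, and the median was 0.09 on the log2 scale. These shares stand beside 11.3% and 13.0% of all tested genes, and with lists this short the counts below describe their genes and set no list apart. Of 12 genes for carbon and NADPH supply, 2 rose and 1 fell: Acss2, which makes acetyl-CoA from acetate (log2 0.78, edgeR adjusted p = 0.0250), Pklr, liver pyruvate kinase (0.78, 0.0331), and Gckr, the glucokinase inhibitor (-0.83, 0.0134). Among 13 desaturases and elongation enzymes 3 rose, Fads2 by 2.07, Fads1 by 0.82 and Hacd3 by 0.56 on the log2 scale. Of 17 upstream regulators 4 rose, led by Ppara (2.02, edgeR adjusted p = 0.00389), the receptor for fatty acids that drives their oxidation, Bhlhe40 (1.26) and Rxra (0.92). Of 10 genes for SREBP processing Rnf139 rose (0.91) and Fbxw7, part of the ubiquitin ligase that removes nuclear SREBP, fell (-1.25, edgeR adjusted p = 0.00396). Rnf139 shares 1140 exon bases with Tatdn1.

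Around the glycerol backbone, 1 of 5 tested genes of glycerol 3-phosphate supply rose, Gpd1l, a glycerol 3-phosphate dehydrogenase, with 12.6, 14.1 and 14.6 CPM in HFD and 36.8, 39.3 and 30.03 CPM in Allantoin-H. Its log2 value was 1.36 (SE 0.17, edgeR adjusted p = 0.00301). Of 14 genes on side branches of phosphatidic acid and diacylglycerol 2 rose, Cds2, which makes CDP-diacylglycerol (1.25, edgeR adjusted p = 0.00542), and Plpp3, a lipid phosphate phosphatase (0.74). Of 10 other acyltransferases of these families 1 passed, Taz, tafazzin, which remodels cardiolipin and fell (-0.68, edgeR adjusted p = 0.0157). In mitochondrial fatty acid synthesis Mcat rose (0.89) and Ndufab1, the acyl carrier protein that is also a complex I subunit, fell (-0.75), of 10 tested. Of 12 genes of triglyceride hydrolysis 4 rose, among them Ces1g (1.56, edgeR adjusted p = 0.00319), Lipa, lysosomal acid lipase (1.2), and Daglb (1.09), which shares 2309 exon bases with Rac1. The other 3 that passed, Hacd2 (-0.61), Akt2 (0.71) and Ces1d (1.56), are named after their values were seen.

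The neighbouring calls differed in how they held over the 16 refits, and 0 of the 23 turned sign. The calls of Fads2, Ppara, Bhlhe40, Rxra, Rnf139, Fbxw7, Gpd1l, Cds2, Ces1g, Lipa and Daglb were lost in 0 refits. Ces1d lost its call in 1 refit and Akt2 in 2. Acss2, Gckr and Ndufab1 lost theirs in 3, Pklr, Hacd3, Mcat and Taz in 4, Fads1 and Plpp3 in 5, and Hacd2 in 7.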

How the data were processed

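The 6 liver libraries comprised 3 of HFD and 3 of HFD+Allantoin-H. The deposited values are raw counts per gene, whole numbers that the authors made from filtered Illumina reads without normalization. The submitters' processing notes name GRCm38 and mm10; the aligner, the counting tool and its strand setting are not given in the sources used here. Of 54961 entries, 429 features without an Ensembl identifier (0.197% to 0.306% of the counts) were left out.

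Counts were tested with edgeR 4.0.16 in R 4.3.3 (TMM, filterByExpr with at least 10 counts, quasi-likelihood test, group as the only term, Benjamini-Hochberg over 12795 genes, threshold 0.05). The procedure was tested on simulated data, which does not bear on single calls in these libraries. CPM used TMM-scaled library sizes. CPM per kb divided by the longest protein-coding transcript of GENCODE M21 (GRCm38), which also gave symbols, positions and exon overlaps. BLAST 2.17.0 was used to look for other genes with 95% or more identity across 200 or more bases. Among exon overlaps not named with their genes were those of Mlx with Psmc3ip (385 bases), Mid1ip1 with Gm14493 (543) and Mogat1 with BC035947 (200). Lpcat2 overlapped Gm45472 (287) and Pklr overlapped Hcn3 (711). Promoter windows came from RefSeq (GRCm38.p6).

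The genes, the lists and the tests were chosen with earlier results of these data known. The 12 called or qPCR-assayed genes are given in full, the others by log2 fold change, range or counts. Of other pathway genes the 3 called ones with the smallest p per list are named. Refits used RLE, library-size and upper-quartile scaling, DESeq2 1.42.0, limma-voom (limma 3.58.1), 3 other filters, removal of the length and GC trend (splines with 5 degrees of freedom), omission of the mitochondrial chromosome and of each library, and stricter thresholds. Depth was 11326372 to 14601457 counts per library, and 3 counts were taken as the floor.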

Additional observations from a re-analysis of the deposited data

How the results depend on the processing

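The 10 calls kept their direction in all 16 refits, and Gpam, Mlxipl and Acacb kept their call. Over single genes and all settings, stricter thresholds included, 420 of 519 values stayed on their side of the threshold with the same sign, 45 lost and 21 gained a call, and 33 turned sign, spread over 12 genes of which 0 were called. Scaling by library size only gave 1 gene lower, 37 other pathway genes higher and 1 lower, and a median of 0.49; DESeq2 gave 9 other pathway genes lower, limma-voom 1 of the 29 genes lower, and no filter 13 other pathway genes lower. An adjusted p under 0.01 left 2 higher and 1 lower (10 and 2 in the other lists), and an absolute log2 fold change over 1 left 2 and 1 (9 and 1). Leaving out each library gave 2 to 9 genes higher and 1 to 3 lower, 11 to 24 and 1 to 12 in the other lists, and medians of 0.055 to 0.41. The cause was not tested, except that fewer libraries leave fewer degrees of freedom.

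Signs turned with library size only for Agpat2 (0.24), Lpcat3 (0.14), Fasn (0.22), Dgat1 (0.11), Lpin3 (0.34), Mogat1 (0.39), Lpcat2 (0.22) and Agpat4 (0.31), as log2 fold changes. They turned with limma-voom for Mlx (-0.0051) and Agpat4 (0.048), without a filter for Mogat1 (0.021), with CPM over 1 for Mlx (-0.0043), and with the length and GC trend removed for Agpat2 (0.16), Acaca (-0.069), Agpat5 (-0.19), Mogat1 (0.12) and Agpat4 (0.055). With single libraries left out the ranges that crossed 0 were -0.10 to 0.077 for Mlx, -0.042 to 0.26 for Acaca, -0.16 to 0.15 for Agpat5, -0.61 to 0.36 for Mogat1, -0.40 to 0.27 for Fasn, -0.50 to 0.82 for Agpat4, -0.16 to 0.76 for Lpin1 and -0.18 to 0.0047 for Lpin3. No paired analysis was possible because the groups share no replicate number. With 3 libraries per group, no batch or date and low counts for Agpat4, Lpcat1 and the untested genes, small differences were not detectable.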
